A study of Homo sapiens with 15 samples.

Results

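The comparison described here sets A549 cells given geldanamycin at 10 nM for 48 h against A549 cells given vehicle for the same 48 h. The 3 arrays labelled with the lower of the study's doses at 48 h and the 3 vehicle arrays of that time were taken by their labels, which gives 6 of the 15 arrays of the series. A549 is an established human lung carcinoma line with epithelial features. The vehicle was DMSO, present at 0.4% in every group, and the cells were seeded 24 h before the drug or vehicle was added. The labels call the 10 nM dose the IC20. The remaining 9 arrays hold vehicle for 24 h, 40 nM for 24 h and 40 nM for 48 h, with 3 arrays in each group. All cells are of 1 line, and the labels do not say whether the replicates were separate cultures, so the p-values below measure the spread between arrays, which may be technical.

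HSP90 is an abundant chaperone that folds and stabilises kinases, steroid hormone receptors and other client proteins with the help of co-chaperones. Geldanamycin is a benzoquinone ansamycin that occupies the ATP pocket of HSP90 and blocks its cycle. Clients are then degraded, and release of the transcription factor HSF1 from HSP90 is known to switch on heat shock genes such as the HSP70 and HSP40 families. The drug acts on proteins, whereas arrays read transcripts, so loss of a client protein is not itself measured here.

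The values are log2 expression values from Affymetrix HG-U133 Plus 2.0 arrays, which carry short probes against the 3' part of transcripts. For each of 19775 genes, 1 probe set was read, and differences between groups were fitted with limma over all 15 arrays. A gene is said to have risen or fallen when its two-sided limma p-value, adjusted by Benjamini-Hochberg over the 19775 genes, was under 0.05. A difference of 1 on the log2 scale is a change of 2-fold, and every "±" beside a difference is the standard error of the fit with 3 arrays a group. Since RNA was taken from whole cultures, fewer cells of a kind and less RNA per cell cannot be told apart.

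The 3 arrays at 10 nM stood apart from the others in their control probe sets. The 24 probe sets against poly-A RNA, which is added to the sample before labelling, had mean log2 values of 3.33, 3.39 and 3.40 on the 10 nM arrays, against 5.99, 5.86 and 5.95 on the vehicle arrays and 5.74, 5.89 and 5.79 on the 40 nM arrays at 48 h. The 3' probe set of ACTB exceeded its 5' probe set by 2.65, 2.70 and 2.69 on the 10 nM arrays and by 0.41, 0.36 and 0.29 on the vehicle arrays. The same gap for GAPDH was 0.13, 0.13 and 0.13 at 10 nM and 0.12, 0.18 and 0.14 in vehicle. The 18 controls that are added to the labelled material before hybridization differed by a median of 0.29. The control values thus separated the 10 nM arrays from the vehicle arrays without overlap in the poly-A, ACTB and hybridization sets, and their part in the gene differences below was not tested.

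**Figure D1:**
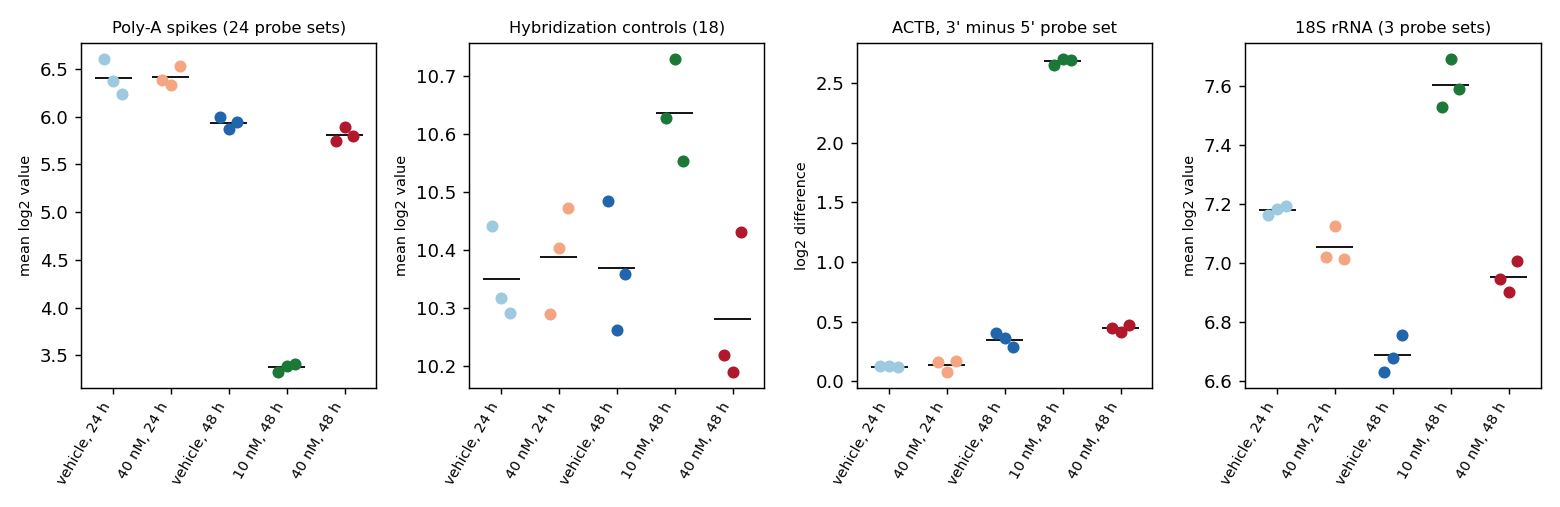
Control probe sets on each of the 15 arrays, 1 point per array and a line at the group mean, by group. The axes are mean log2 values of the poly-A spikes, the hybridization controls and the 18S rRNA sets, and the log2 difference between the 3' and 5' probe sets of ACTB; the green points of 10 nM lie apart from all other arrays in the poly-A panel (3.33 to 3.40) and in the ACTB panel (2.65 to 2.70).

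At 10 nM against vehicle, 5204 of 19775 genes passed the test, which is 26.3% of the genes tested. Of these, 2851 were higher (14.4% of all genes) and 2353 were lower (11.9%). When each array's median was subtracted first, the split was 2457 higher and 2833 lower. A change of at least 2-fold was met by 258 of the rises and 212 of the falls, together 470 genes or 2.38%. The median difference over all genes was 0.0042 and the median standard error was 0.097. At 40 nM against the same vehicle arrays 4207 genes (21.3%) passed, and 195 genes rose and 45 fell at least 2-fold. Of all genes 10.5% were higher and 10.7% lower at 40 nM. Counts of list members below are to be read beside these shares and those at 10 nM. The comparisons of 10 nM and of 40 nM with vehicle share the vehicle arrays, so their values are set side by side, and the doses are compared by the direct test of 40 nM minus 10 nM.

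The promoters of 5 genes are shown first, because interferon-stimulated and inflammatory genes were among the largest rises and DNAJB6 was the largest fall among heat shock genes. IFI6 and IFI27 are interferon-stimulated genes, VCAM1 codes for a leukocyte adhesion molecule and TNFAIP3 for an ubiquitin-editing inhibitor of NF-kB. DNAJB6 is an HSP40-family chaperone. The sequences are from RefSeq on GRCh38.p14 and hold the 250 bases before the annotated start, 5′ to 3′ on the gene's strand. They lie at chr1:27672193-27672442 on the minus strand for IFI6, chr14:94110486-94110735 on the plus strand for IFI27, chr1:100719492-100719741 on the plus strand for VCAM1, chr6:137867009-137867258 on the plus strand for TNFAIP3 and chr7:157336754-157337003 on the plus strand for DNAJB6. Capitals mark matches on either strand to motifs in which some bases are free. In IFI6 and IFI27 the motif is an interferon-stimulated response element, GAAA, 2 free bases and GAAA. In VCAM1 and TNFAIP3 it is an NF-kB element, GGG, 2 free bases, TT, 1 free base and CC. In DNAJB6 it is a heat shock element of 3 units that alternate between GAA and TTC with 2 free bases between them.
IFI6: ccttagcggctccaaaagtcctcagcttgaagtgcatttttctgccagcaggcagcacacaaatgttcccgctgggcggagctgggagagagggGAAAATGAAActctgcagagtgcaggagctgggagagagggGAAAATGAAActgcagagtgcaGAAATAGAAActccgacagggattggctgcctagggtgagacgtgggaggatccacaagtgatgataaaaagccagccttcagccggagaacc
IFI27: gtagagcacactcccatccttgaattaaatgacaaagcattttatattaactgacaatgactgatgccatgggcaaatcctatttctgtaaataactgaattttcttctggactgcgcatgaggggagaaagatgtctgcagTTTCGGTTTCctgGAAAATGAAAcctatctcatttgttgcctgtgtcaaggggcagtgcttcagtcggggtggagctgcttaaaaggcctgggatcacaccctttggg
VCAM1: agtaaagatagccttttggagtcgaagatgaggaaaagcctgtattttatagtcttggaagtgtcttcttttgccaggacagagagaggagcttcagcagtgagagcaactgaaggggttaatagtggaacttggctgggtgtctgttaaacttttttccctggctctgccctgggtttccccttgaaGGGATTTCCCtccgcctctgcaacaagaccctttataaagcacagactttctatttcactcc
TNFAIP3: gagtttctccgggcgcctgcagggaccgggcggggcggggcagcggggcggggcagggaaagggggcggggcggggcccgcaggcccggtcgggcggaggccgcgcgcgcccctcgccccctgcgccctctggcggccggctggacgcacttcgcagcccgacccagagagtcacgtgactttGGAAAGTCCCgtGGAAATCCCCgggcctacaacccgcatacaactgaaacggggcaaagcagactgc
DNAJB6: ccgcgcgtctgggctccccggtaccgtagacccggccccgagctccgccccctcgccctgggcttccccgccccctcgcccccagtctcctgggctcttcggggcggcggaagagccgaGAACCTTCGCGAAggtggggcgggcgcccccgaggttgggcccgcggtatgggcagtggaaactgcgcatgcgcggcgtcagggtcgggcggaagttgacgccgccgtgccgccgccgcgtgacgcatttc

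The IFI6 stretch holds 3 matches to its marked motif, those of IFI27 and TNFAIP3 hold 2 and those of VCAM1 and DNAJB6 hold 1. Matches to the other motifs searched are left in lower case: VCAM1 also holds 1 interferon-stimulated response element and IFI27 holds 1 antioxidant response element. Over the window from 250 bases before to 50 after the start, the interferon element was found in 12 of the 20 interferon-stimulated genes with a promoter sequence (60%) and in 2.94% of the 15384 tested genes with one. All 12 of those genes rose at 10 nM, as did 6 of the 8 without the letters. The NF-kB element was found in 10 of 20 inflammatory genes (50%) and 6.32% of all promoters. Of those 10 genes 8 rose and 1 fell, and of the 10 without it 7 rose. Among the rises of at least 2-fold, 10.9% of promoters held the interferon element and 13% the NF-kB element. Those rises include 12 genes of the interferon-stimulated list and 8 of the inflammatory list. Among all called rises the shares were 3.87% and 7.48%. The heat shock element, starting with either unit, was found in 5 of 24 heat shock genes (20.8%) and 0.429% of all promoters. Of those 5 genes, CHORDC1, DNAJA1, HSPA6 and SERPINH1 did not pass the test and DNAJB6 fell. The antioxidant response element, TGAC, 3 free bases and GCA, was found in 2 of 22 promoters of NRF2 target genes (9.09%) and 3.33% of all promoters. A match is only a description of letters in a window; the interferon and NF-kB letters were chosen after the gene values had been seen.

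Heat shock genes, the usual transcript readout of HSP90 inhibition, did not move together at 10 nM. Of 27 measured members of the list 4 rose and 7 fell, where 14.4% of all genes rose and 11.9% fell. The median difference was 0.00, against a median of 0.0042 over all genes. The rises were HSPB8 (1.03 ± 0.07), HSPA2 (0.80 ± 0.08), HSPA4L (0.69 ± 0.11) and CACYBP (0.15 ± 0.05). HSPB8 is a small heat shock protein that works with BAG3, and BAG3 itself differed by 0.03 ± 0.06 and did not pass. HSPB8 stood at 7.12, 7.23 and 7.17 on the vehicle arrays and at 8.21, 8.21 and 8.20 on the 10 nM arrays, with no overlap; its other probe set, which was dimmer, differed by -0.0094. At 40 nM the list's median was 0.18, with 10 rises and 2 falls (10.5% and 10.7% of all genes). In the direct test 14 of 27 members were higher at 40 nM than at 10 nM (11.9% of all genes were).

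The largest falls among heat shock genes were DNAJB6 and HSPB1, both on chromosome 7. DNAJB6 stood at 8.70, 8.60 and 8.70 in vehicle and at 7.22, 7.36 and 7.11 at 10 nM, a difference of -1.43 ± 0.09 (limma adjusted p = 3.9e-08). HSPB1, the small heat shock protein HSP27, stood at 12.46, 12.43 and 12.40 in vehicle and at 11.63, 11.62 and 11.47 at 10 nM, a difference of -0.85 ± 0.06 (limma adjusted p = 2.02e-07). At 40 nM neither gene passed against vehicle (0.24 ± 0.09 and 0.09 ± 0.06), and both were higher at 40 nM than at 10 nM in the direct test. STIP1, the adaptor between HSP70 and HSP90, fell by 0.41 and DNAJB1, an HSP40 and a standard marker of HSF1 activity, fell by 0.20; that call was lost without the third vehicle array (limma adjusted p = 0.0568) or the second 10 nM array (limma adjusted p = 0.0573). HSF1 itself fell by 0.29, with a limma adjusted p of 0.00231. Its second brightest probe set, which was dim (mean log2 value 4.17), differed by 0.041.

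The genes for HSP90 itself differed from each other. HSP90AA1, the inducible cytosolic form, stood at 13.56, 13.54 and 13.54 in vehicle and at 13.56, 13.56 and 13.54 at 10 nM, a difference of 0.00 ± 0.05 (limma adjusted p = 0.977). Its other probe sets differed by 0.11, -0.17 and -0.57, and the mean of all its sets was a called fall of -0.16 (limma adjusted p = 0.0433). HSP90AB1, the constitutive cytosolic form, stood at 12.62, 12.66 and 12.67 in vehicle and at 12.25, 12.28 and 12.28 at 10 nM and fell by 0.38. Its probe sets disagreed: the others differed by -0.70 and 1.05, and their mean by -0.0091 (limma adjusted p = 0.949). HSP90B1, the form of the endoplasmic reticulum, rose by 0.45 ± 0.09, although its second probe set differed by 0.14 and did not pass, and TRAP1, the mitochondrial form, differed by -0.13 ± 0.06 and did not pass. Among 16 co-chaperone genes, 3 rose and 6 fell with a median of -0.12; the largest fall was PPP5C, the phosphatase PP5, at -0.74 ± 0.11, but its other probe set differed by -0.15 and did not pass. With the second brightest probe sets the list's median was 0.06. CDC37, which loads kinases onto HSP90, fell by 0.37.

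Transcripts of HSP90 clients were also mixed, with 5 rises and 9 falls among 25 measured (14.4% and 11.9% of all genes). IGF1R, the insulin-like growth factor receptor, stood at 10.12, 10.05 and 10.16 in vehicle and at 8.87, 8.83 and 9.01 at 10 nM and fell by 1.21. AHR, the aryl hydrocarbon receptor (-0.83 ± 0.15), MET, the hepatocyte growth factor receptor (-0.70 ± 0.06), and CDK6 (-0.68 ± 0.07) fell as well, and 3 of the 9 falls were of genes on chromosome 7. The second probe set of MET differed by -0.36 and did not pass. SRC rose by 0.68 ± 0.06, but the mean of its probe sets differed by 0.18 and did not pass. NR3C1, the glucocorticoid receptor, fell by 0.32, but its second brightest probe set differed by 0.14. Among 10 AHR-related genes 0 rose and 5 fell, with a median of -0.30, which was 0.06 with the second brightest probe sets. CYP1B1, an AHR-induced cytochrome P450, stood at 9.66, 9.71 and 9.75 in vehicle and at 6.95, 7.03 and 6.72 at 10 nM, a fall of 2.81. Of 16 glucocorticoid receptor targets, 2 rose and 7 fell, led by GLUL, glutamine synthetase (-1.49 ± 0.11), which differed by 0.07 and did not pass without probe sets that may read several transcripts.

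Most interferon-stimulated genes were higher at 10 nM. Of 25 measured members 20 rose and 0 fell, against 14.4% and 11.9% of all genes, and the median difference was 0.99. That median was 0.78 with the mean of each gene's probe sets and 0.33 with the second brightest sets. IFI27, a mitochondrial interferon-induced protein, stood at 5.18, 4.86 and 4.62 in vehicle, at 9.29, 9.19 and 8.73 at 10 nM and at 5.69, 5.85 and 5.99 at 40 nM. The 10 nM arrays lay above both other groups without overlap, and IFI27 rose by 4.18 ± 0.16 (18.1-fold, limma adjusted p = 3.57e-10). IFI6, an inhibitor of apoptosis induced by interferon, stood at 7.13, 7.11 and 7.10 in vehicle and at 10.49, 10.50 and 10.45 at 10 nM, a rise of 3.37 ± 0.09 (10.3-fold). IFI44L (2.22 ± 0.12) and BST2, the virus tether tetherin (1.82 ± 0.22), followed.

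Sensors and transcription factors of the pathway rose as well. IFIH1, the RNA sensor MDA5, rose by 1.48 ± 0.19 and RIGI by 0.95 ± 0.08, while IRF1, IRF7 and IRF9 rose by 0.66 ± 0.09, 0.75 ± 0.08 and 0.64 ± 0.08. PSMB9, an immunoproteasome subunit, rose by 1.30 ± 0.06. OASL, OAS2, RSAD2, XAF1 and MX2 did not pass, with differences between 0.10 and 0.60. In the direct comparison 9 of the 25 genes were lower at 40 nM than at 10 nM (14.5% of all genes were) and 1 was higher. The gap was largest for IFI27 (-3.23 ± 0.16, limma adjusted p = 6.49e-09) and IFI6 (-2.39 ± 0.09, limma adjusted p = 1.65e-10), whereas IFIT3, IFIT1 and MX1 did not pass between the doses. The list's median at 40 nM against vehicle was 0.75.

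Inflammatory genes under NF-kB control rose at 10 nM, and more so at 40 nM. Of 25 measured, 20 rose and 1 fell at 10 nM with a median of 0.82 (0.30 with the second brightest probe sets). At 40 nM 24 rose (10.5% of all genes), with a median of 1.73. In the direct test 18 were higher at 40 nM and 2 were lower. VCAM1 stood at 4.35, 4.45 and 4.33 in vehicle, at 8.54, 8.60 and 8.31 at 10 nM and at 7.07, 7.15 and 6.94 at 40 nM. CCL5, a chemokine for T cells, stood at 5.43, 5.28 and 5.24 in vehicle, between 8.98 and 9.03 at 10 nM and at 8.27, 8.28 and 8.35 at 40 nM. VCAM1 and CCL5 were the members lower at 40 nM than at 10 nM, and they rose by 4.10 ± 0.15 and 3.69 ± 0.12 at 10 nM.

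The other chemokines followed the opposite order of doses. CCL20 rose by 1.40 ± 0.10 at 10 nM and 3.42 ± 0.10 at 40 nM, and CCL2 by 1.15 ± 0.09 and 3.19 ± 0.09. CXCL8, the neutrophil chemokine interleukin-8, differed by 0.12 ± 0.06 at 10 nM, which did not pass, and rose by 2.13 ± 0.06 at 40 nM. CXCL1 fell by 0.59 at 10 nM and rose by 1.48 ± 0.08 at 40 nM. The feedback inhibitors TNFAIP3 (1.85 ± 0.09) and NFKBIA (0.82 ± 0.06) rose at 10 nM, as did IL6 (0.92 ± 0.07) and PTGS2, the inducible cyclooxygenase (1.48 ± 0.14). PTX3, a secreted pattern-recognition protein, rose by 2.47 ± 0.11 at 10 nM and 2.48 ± 0.11 at 40 nM.

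**Figure D2:**
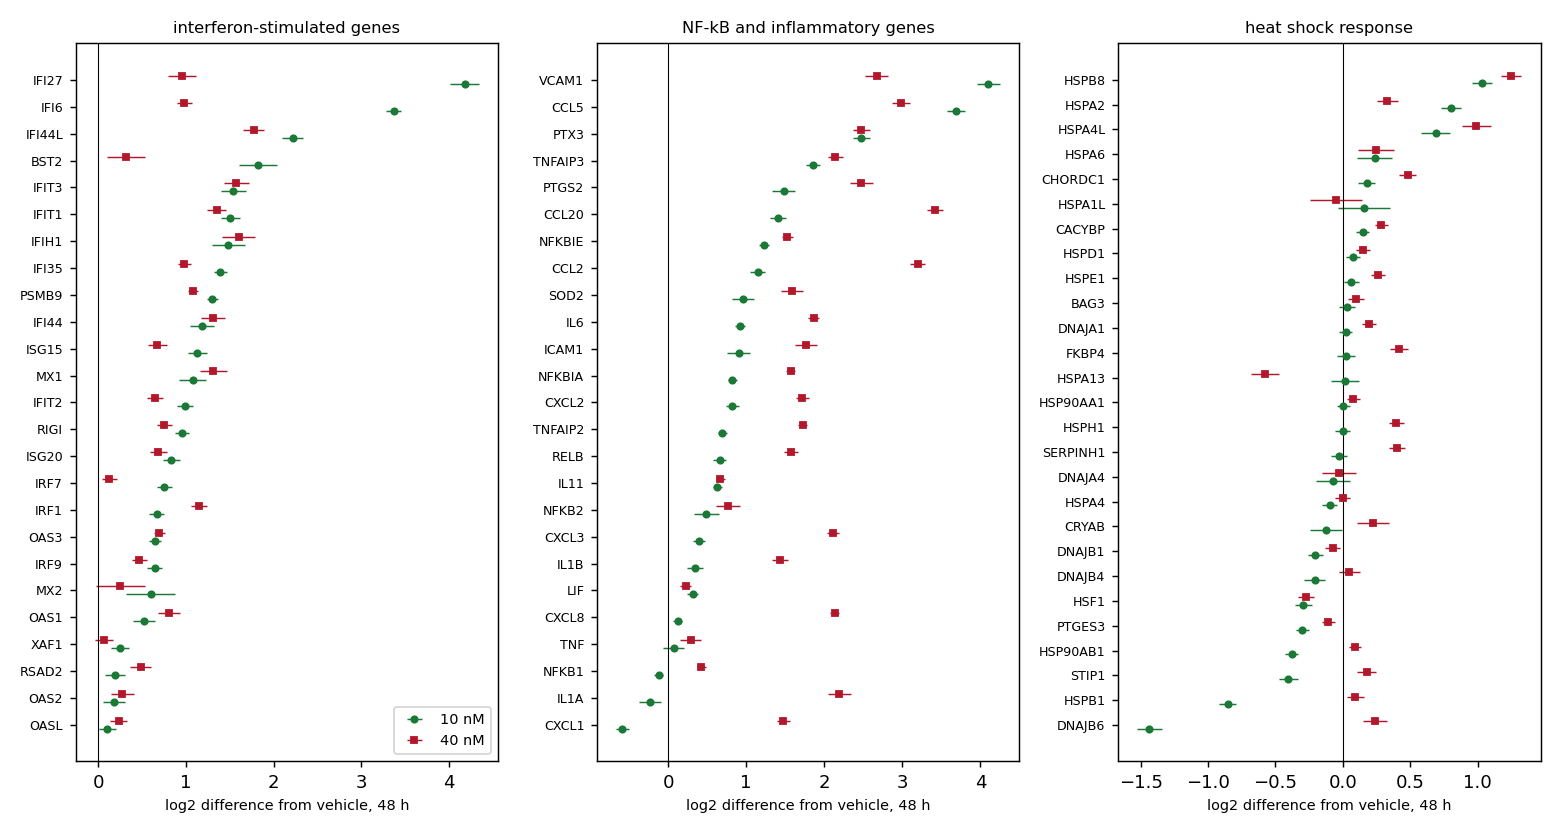
Log2 difference from vehicle at 48 h for every measured member of the interferon-stimulated, NF-kB and heat shock lists, with green circles for 10 nM, red squares for 40 nM and bars of 1 standard error; both doses share the vehicle arrays. IFI27 (4.18 at 10 nM, 0.95 at 40 nM) and IFI6 lie far higher at 10 nM, most inflammatory genes lie further right at 40 nM, and most heat shock genes lie near 0 at 10 nM.

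Targets of the tumour suppressor p53 rose without a fall. Of 22 measured, 17 rose and 0 fell at 10 nM (14.4% and 11.9% of all genes). The median was 0.48 at 10 nM and 0.60 at 40 nM. The median at 10 nM was 0.32 without probe sets that may read several transcripts. FAS, a death receptor, stood at 7.73, 7.49 and 7.63 in vehicle and at 9.06, 9.17 and 9.02 at 10 nM. It rose by 1.46 ± 0.08, and further probe sets of it that may read several transcripts differed by 1.18, 1.20 and 1.14. Without such sets FAS was read from a dimmer set, differed by 0.28 and did not pass. GDF15, a stress-induced cytokine, rose by 1.37 ± 0.07, but a dimmer probe set of it differed by -0.11. The cell cycle inhibitor CDKN1A (0.77 ± 0.06), the p53 ligase MDM2 (0.83 ± 0.07) and the pore-forming BAX (0.87 ± 0.09) rose too. Between the doses, CDKN1A and MDM2 were higher at 40 nM and BAX was higher at 10 nM, while FAS and GDF15 did not pass.

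Apoptosis regulators had 11 rises and 0 falls among 19 measured (14.4% and 11.9% of all genes). They were of both kinds: BCL2A1, which protects cells, rose by 1.55 ± 0.15, and BCL2L11, the death promoter BIM, rose by 1.21 ± 0.08. BCL2A1 was higher again at 40 nM (1.26 ± 0.15 above 10 nM), and BCL2L11 was higher at 10 nM than at 40 nM. BCL2, CASP8 and CASP9 did not pass at 10 nM.

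Replication-dependent histone genes rose in 10 of 13 cases at 10 nM with 0 falls (14.4% and 11.9% of all genes). Their median was 0.95 at 10 nM and 0.85 at 40 nM. H2BC12 stood at 10.02, 9.88 and 9.84 in vehicle and at 11.11, 11.13 and 11.08 at 10 nM, a rise of 1.19 ± 0.07, and H1-2 rose by 1.17 ± 0.11. These genes are near-identical copies, and their probe sets may read several of them. Genes of mitosis had 10 rises and 0 falls among 27, led by the kinase AURKA (0.70 ± 0.08), with a median of 0.14. The second AURKA probe set differed by 0.46. The AURKA call was lost without probe sets that may read several transcripts, where a dimmer set differed by 0.28. Genes of G1/S and replication were mixed, with 9 rises and 6 falls among 28. MCM7, a helicase subunit on chromosome 7, fell by 0.58, and CCND1, cyclin D1, fell by 0.49, although a dimmer probe set of CCND1 differed by 0.23.

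Genes of the amino acid and endoplasmic reticulum stress responses moved in both directions. Of 29 genes of the ATF4 amino acid response 5 rose and 13 fell (14.4% and 11.9% of all genes). SLC3A2 and SLC7A5, the chains of an amino acid transporter, fell by 1.13 and 0.86, while ATF3 rose by 1.08 ± 0.11; its other probe sets differed by -0.18 and -0.16. The list's median was -0.05 at 10 nM and -0.44 at 40 nM, where 24 members fell (10.7% of all genes). CHAC1 and DDIT3 rose at 10 nM (0.69 ± 0.10 and 0.37 ± 0.07) and were lower at 40 nM than at 10 nM. Of 25 endoplasmic reticulum stress genes 5 rose and 10 fell, with a median of 0.02; AGR2, a disulfide isomerase, rose by 1.28 ± 0.06, and PDIA4 fell by 0.76 and EDEM1 by 0.62. AGR2 and PDIA4 lie on chromosome 7 and EDEM1 on chromosome 3. The second probe set of PDIA4 differed by -0.21 and did not pass.

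Among 27 NRF2 targets, 4 rose and 6 fell at 10 nM, where 14.4% and 11.9% of all genes did. At 40 nM 13 rose and 1 fell, where 10.5% and 10.7% of all genes did. GPX2, an epithelial glutathione peroxidase, rose by 1.98 ± 0.07 at 10 nM and 2.60 ± 0.07 at 40 nM. HMOX1, haem oxygenase, rose by 0.20 ± 0.06 and 1.23 ± 0.06. Of 9 genes of the metallothionein list 6 fell and 1 rose, with a median of -0.34. That median was -0.18 with the mean of each gene's probe sets, 0.03 with the second brightest sets and -0.0020 without sets that may read several transcripts. Proteasome subunits had 10 rises and 3 falls among 24, all within 0.32 of 0 on the log2 scale. Cytosolic ribosomal protein genes had 0 rises and 0 falls among 16, and their differences ran from 0.02 to 0.13.

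Genes of matrix and mesenchyme fell more often than they rose, with 15 falls and 4 rises among 26 (11.9% and 14.4% of all genes). GREM1, a secreted BMP antagonist, stood at 6.57, 6.70 and 6.33 in vehicle and at 2.67, 2.93 and 3.11 at 10 nM, a fall of 3.63. ZEB2 and SNAI2, repressors of epithelial genes, fell by 1.73 and 1.14. THBS1, thrombospondin-1 (-1.50 ± 0.08), FN1, fibronectin (-1.27 ± 0.06), and MMP2 (-1.38 ± 0.07) fell as well. SPARC, a matrix glycoprotein, went the other way; it stood at 6.87, 6.72 and 6.69 in vehicle and at 10.78, 10.77 and 10.71 at 10 nM. Of 22 actin and SRF target genes 2 rose and 9 fell, led by TAGLN, transgelin, which fell by 2.63. The second TAGLN probe set differed by -2.46. Without probe sets that may read several transcripts, TAGLN was read from a dimmer set, differed by -0.18 and did not pass.

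Epithelial genes were split, with 8 rises and 4 falls among 21 (14.4% and 11.9% of all genes). CDH1, the junction protein E-cadherin, stood at 6.99, 6.95 and 6.92 in vehicle, at 9.79, 9.84 and 9.70 at 10 nM and at 8.74, 8.72 and 8.72 at 40 nM. Its second probe set, which was dim (mean log2 value 3.73), differed by 0.02 at 10 nM and did not pass. LAMB3 (2.54 ± 0.11), DSP, desmoplakin (1.93 ± 0.08), and CLDN2 (1.69 ± 0.08) rose, and KRT19 fell by 2.41. A dimmer probe set of KRT19 differed by 0.14. ERK pathway output also moved both ways, with 7 rises and 6 falls among 25; FOS fell by 1.72 and MYC by 0.93, while DUSP6, a phosphatase that switches ERK off, rose by 0.67 ± 0.11, although its second probe set differed by 0.10 and did not pass. At an unadjusted limma p under 0.05 there were 0 falls among interferon-stimulated genes, p53 targets, histones and mitosis genes, 1 fall among apoptosis regulators and 0 rises among AHR-related genes. Ribosomal protein genes then had 1 rise and 0 falls.

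**Figure D3:**
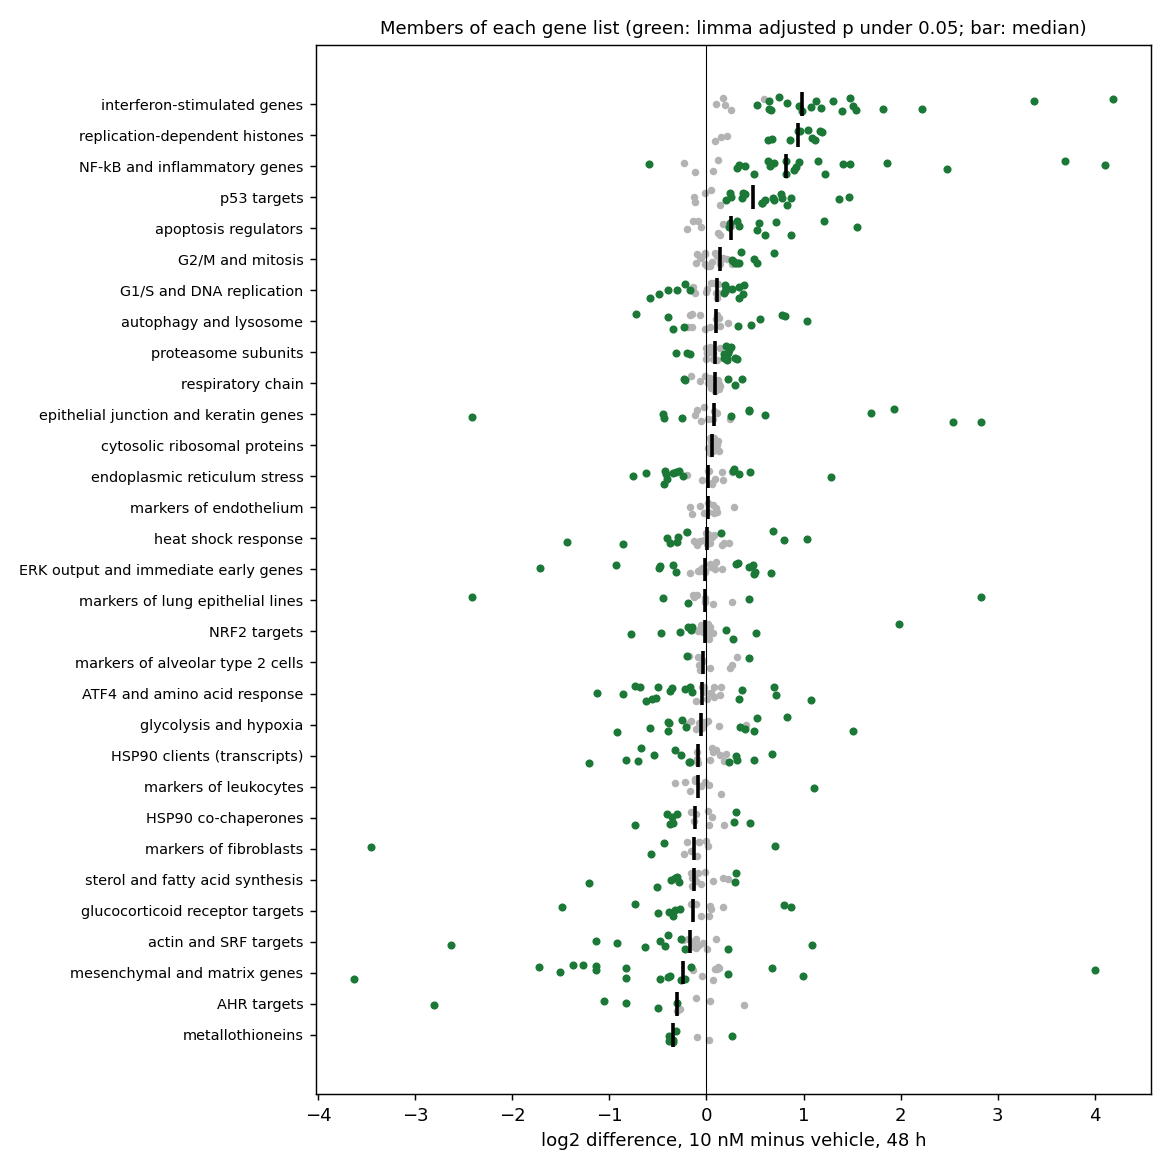
Log2 difference between 10 nM and vehicle at 48 h for the measured members of the 31 gene lists, 1 point per gene, green where the limma adjusted p was under 0.05, with a bar at each list's median. Interferon-stimulated genes, histones, inflammatory genes and p53 targets have medians of 0.99, 0.95, 0.82 and 0.48 and metallothioneins -0.34 with the brightest probe set of each gene; with the second brightest, interferon-stimulated genes are at 0.33, inflammatory genes at 0.30 and metallothioneins at 0.03.

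Markers of other cell types were read beside the 14.4% of all genes that rose and the 11.9% that fell. Endothelial markers had 0 rises and 0 falls among 11 (1 and 0 at an unadjusted limma p under 0.05). Leukocyte markers had 1 rise, ITGAM (1.11 ± 0.09), among 10. The second ITGAM probe set, which was dimmer, differed by 0.04 and did not pass. The common leukocyte antigen PTPRC differed by 0.02 ± 0.09. Fibroblast markers had 1 rise and 3 falls among 12, with LUM, the matrix proteoglycan lumican, falling by 3.45; a dimmer probe set of LUM differed by -0.09 and did not pass. The mean log2 value over the fibroblast list, LUM included, ran from 5.16 to 5.19 in vehicle and from 4.72 to 4.83 at 10 nM, without overlap. The median difference of the fibroblast list was -0.13, and 8 of its 12 members did not pass. For leukocyte markers the mean ran from 4.34 to 4.49 in vehicle and from 4.39 to 4.55 at 10 nM. Markers of lung epithelial lines ran from 9.98 to 10.01 in vehicle and from 9.94 to 10.05 at 10 nM, and 2 of 13 rose and 3 fell, among them CDH1 up and KRT19 down as given above. Of 11 markers of alveolar type 2 cells 1 rose, LAMP3 (0.44), and 1 fell, LPCAT1 (-0.20); the surfactant genes SFTPC and SFTPD differed by 0.04 and -0.08 and did not pass. Their part in the falls of matrix genes was not tested.

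The largest single rises came from genes of varied roles. EDIL3, a secreted integrin ligand, stood at 5.97, 5.72 and 5.73 in vehicle, at 10.45, 10.49 and 10.40 at 10 nM and at 5.05, 5.26 and 5.20 at 40 nM. Thus it rose by 4.64 ± 0.08 at 10 nM (24.9-fold, limma adjusted p = 2.62e-13) and fell by 0.63 at 40 nM. Its other probe sets, which were dim (mean log2 values 3.75 and 3.48), differed by 0.09 and 0.17 at 10 nM. COXFA4L3, a mitochondrial protein related to a cytochrome c oxidase subunit, stood at 6.28, 6.13 and 6.30 in vehicle, at 10.68, 10.65 and 10.62 at 10 nM and at 9.52, 9.71 and 9.59 at 40 nM, and rose at both doses. HBE1, embryonic globin, rose by 3.72 ± 0.09, but a second, dim probe set of it (mean log2 value 3.15) differed by -0.24. SHROOM2, an actin-binding protein (3.60 ± 0.10), FPR2, a formyl peptide receptor (3.52 ± 0.10), HLA-DPA1, an MHC class II chain (3.06 ± 0.17), RGS4, a G protein regulator (2.98 ± 0.19), MMP7, matrilysin (2.90 ± 0.15), and OLR1, a scavenger receptor (2.90 ± 0.15), completed the 15 largest with CDH1, IFI27, IFI6, VCAM1, CCL5 and SPARC.

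The largest falls were of similar size. ST6GAL2, a sialyltransferase, stood at 6.95, 7.33 and 7.25 in vehicle and at 3.08, 2.94 and 2.81 at 10 nM, a fall of 4.24 (18.8-fold, limma adjusted p = 8.66e-12). CDH6, a cadherin of kidney and other epithelia, stood at 8.72, 8.55 and 8.59 in vehicle, at 4.58, 4.19 and 4.52 at 10 nM and at 8.21, 8.26 and 8.36 at 40 nM. All 6 of its probe sets were lower at 10 nM, by 0.63 to 4.28. TSPAN7, a tetraspanin, fell by 3.65, and CNKSR2, a scaffold of RAS signalling, by 3.76. CSTA, cystatin A (-3.40 ± 0.13), RNF128, a ubiquitin ligase (-3.19 ± 0.16), SLC16A7, a monocarboxylate transporter (-3.11 ± 0.12), COL11A1, a collagen chain (-3.08 ± 0.13), ACKR3, a chemokine scavenger (-3.07 ± 0.13), FBN2, fibrillin-2 (-3.07 ± 0.10), HHIP, a hedgehog antagonist (-3.05 ± 0.16), and MAP7D2 (-3.02 ± 0.09) were also among the 15 largest. The second probe set of FBN2, which was dim, differed by -0.0011. One more of the 15 lies on chromosome Y and is not described here; of 33 measured genes of chromosome Y 0 rose and 3 fell at 10 nM.

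**Figure D4:**
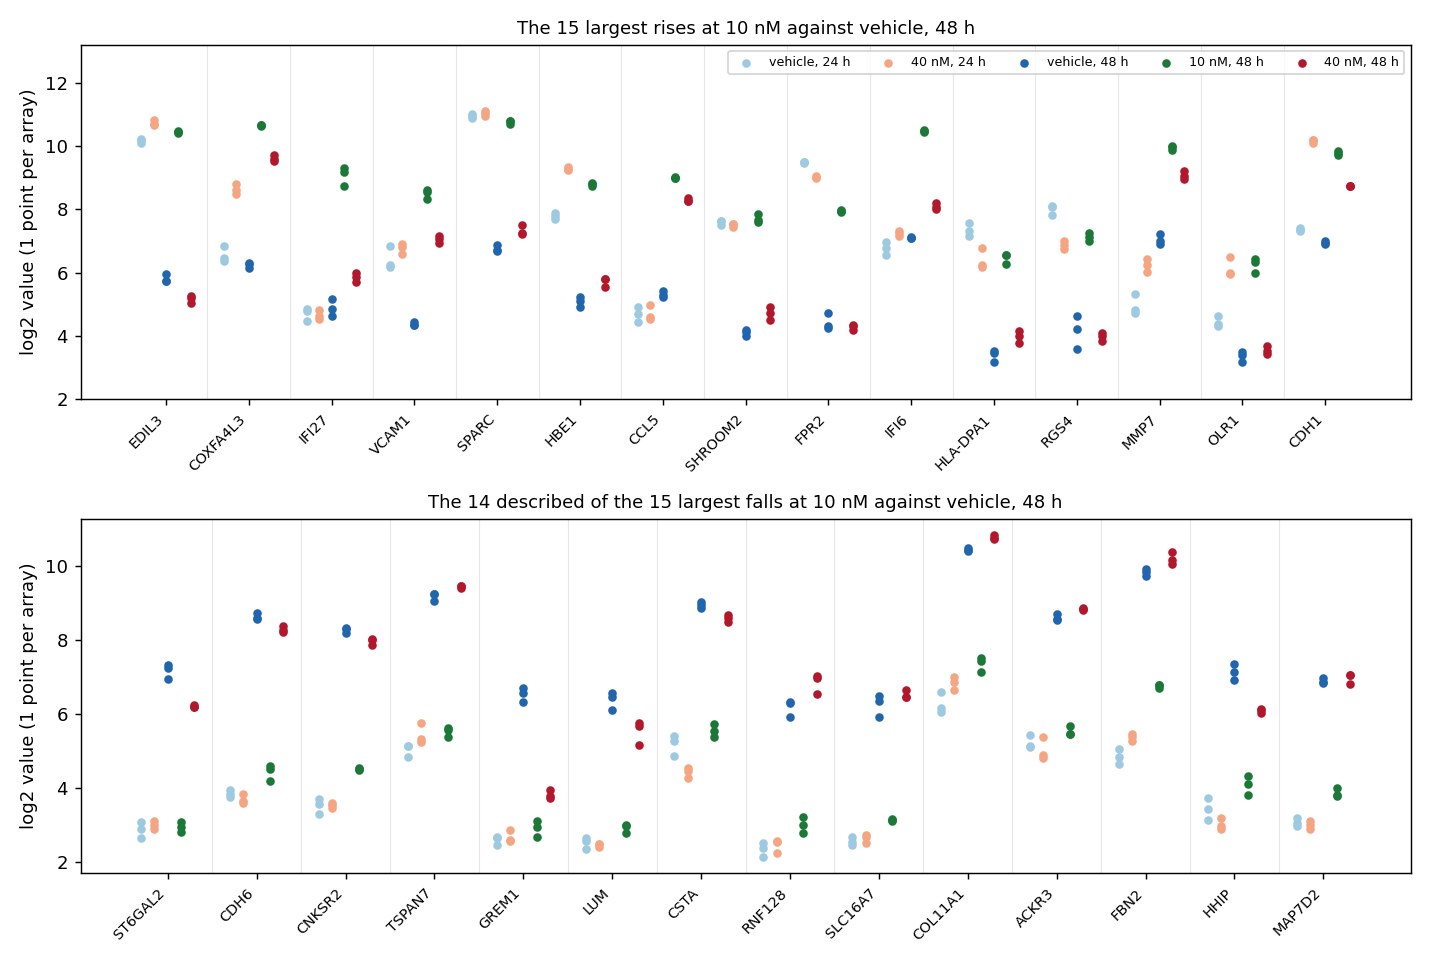
Log2 value on each array for the 15 largest rises and 14 of the 15 largest falls at 10 nM, coloured by group; the vertical axis is the log2 value, and the 24 h arrays were normalized separately and hold a median step of -0.35 against those at 48 h. For EDIL3, SPARC, CDH6 and the other falls shown, the green points of 10 nM lie near the pale blue points of vehicle at 24 h rather than the blue points of vehicle at 48 h, whereas for IFI27, IFI6 and CCL5 they lie above both.

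The vehicle arrays themselves differed between 24 h and 48 h at many of these genes. EDIL3 averaged 10.17 in vehicle at 24 h against 5.81 at 48 h, and SPARC averaged 10.94 against 6.76. CDH6 averaged 3.85 in vehicle at 24 h against 8.62 at 48 h. These levels come from arrays of each time that were normalized apart, with a median step of 0.35 between vehicle at 48 h and at 24 h, so no test was made across times. After that step, the 24 h vehicle level lay nearer to the 10 nM level than to the 48 h vehicle level for 278 of the 470 genes with a change of at least 2-fold (59.1%). The count was 123 of 258 rises (47.7%) and 155 of 212 falls (73.1%). Of the 15 largest rises it was 8, and of the 15 largest falls 15. At 40 nM for 48 h it was 40 of 240 such genes (16.7%), and over all genes at 10 nM it was 48.5%.

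The lists differed in this respect. For interferon-stimulated genes, 3 of 25 had a 24 h vehicle level nearer to that of 10 nM, for p53 targets 7 of 22 and for histones 2 of 13. For matrix genes the count was 16 of 26 and for AHR-related genes 8 of 10. Among 17145 genes whose vehicle levels at 24 h and 48 h lay within 0.5 of each other after the step, an alternative chosen after the data had been seen, 15 of 20 interferon-stimulated genes rose and 0 fell, with a median of 0.89. On the same footing 13 of 16 p53 targets and 9 of 12 histone genes rose, 7 of 9 inflammatory genes rose, and 7 of 13 matrix genes fell. Of all 17145 genes, 12.9% rose and 9.37% fell.

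Position on the chromosomes moved with the difference as well. Among 365 genes of chromosome 7 with a mean log2 value over 7, the median difference between 10 nM and vehicle was -0.40, and 90.1% of the differences were below 0. With no threshold on the level, an alternative chosen after the data had been seen, the median was -0.15, and 344 of 932 genes of chromosome 7 fell and 33 rose. Of the 365 genes over the threshold 275 fell (75.3%) and 19 rose, whereas 17.7% of the genes on chromosomes other than 3 and 7 fell. Each 10 nM array showed it, with chromosome 7 medians of -0.37, -0.35 and -0.48 against the vehicle mean, and the 40 nM arrays had medians of -0.04, 0.01 and -0.02. Medians of the chromosomes other than 3 and 7 ran from -0.0068 to 0.0861 at 10 nM.

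The shift covered the whole of chromosome 7. In windows of 60 neighbouring genes, all 6 windows of chromosome 7, from FAM20C at one end to NOM1 at the other, had medians between -0.45 and -0.38. The first window of chromosome 3, from TRNT1 to CMC1, had a median of -0.39. The other 129 windows of the genome lay between -0.19 and 0.18. Among those 129 were chromosome 3 windows starting at TASOR, SLC35A5 and DNAJC13, with medians of -0.18, -0.18 and -0.19. Over the 454 genes of chromosome 3 with a mean log2 value over 7, the median was -0.10, and 39.4% fell. At 40 nM all 136 windows lay between -0.11 and 0.07. Vehicle at 48 h exceeded vehicle at 24 h on chromosome 7 by a median of 0.44 after the step between the times, and 10 nM at 48 h exceeded vehicle at 24 h there by 0.04.

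**Figure D5:**
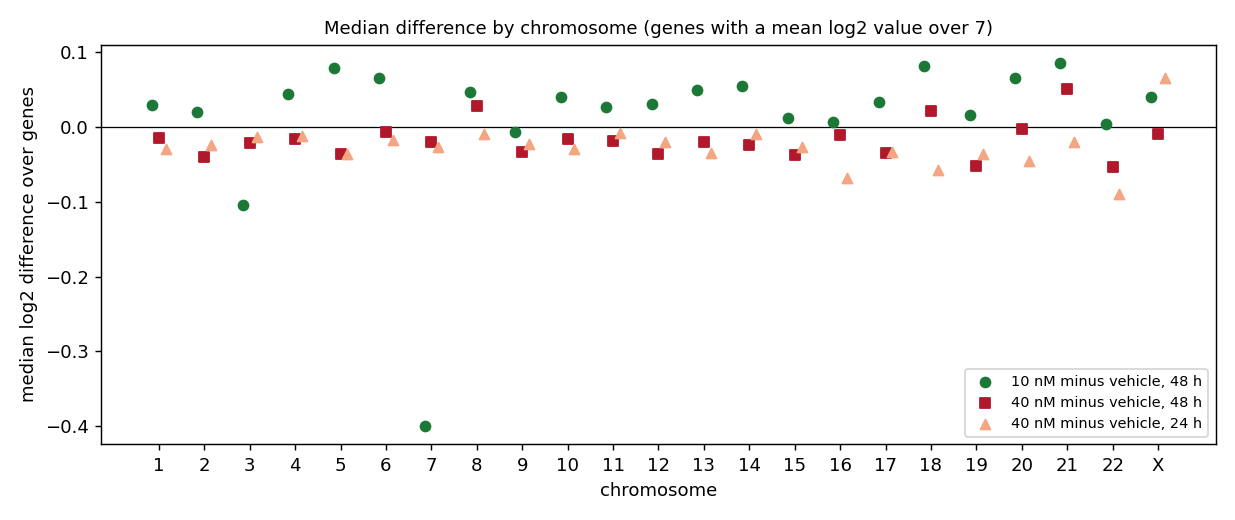
Median log2 difference over the genes of each chromosome with a mean log2 value over 7, for 10 nM minus vehicle at 48 h (green circles), 40 nM minus vehicle at 48 h (red squares) and 40 nM minus vehicle at 24 h (orange triangles). Chromosome 7 lies at -0.40 for 10 nM and near 0 for both other comparisons.

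Several lists hold genes of chromosome 7 among their falls: 2 of 7 falls of heat shock genes, 3 of 9 of clients, 3 of 10 of endoplasmic reticulum stress genes, 3 of 13 of ATF4 genes, 2 of 9 of actin genes and 2 of 3 of proteasome subunits. Over all genes tested, 344 of the 2353 falls were of genes on chromosome 7, and the list counts are too small to set apart from that share. The lists of interferon-stimulated genes, p53 targets and histones hold no gene of chromosome 7. Without chromosome 7, an alternative chosen after the data had been seen, 4802 genes passed, 2804 higher and 1998 lower. The dose, the chromosome 7 shift, the nearness to the 24 h vehicle and the control values all separated the same 3 arrays, so they cannot be told apart in this design.

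The direct comparison of doses gave 5211 genes (26.4%) that differed between 40 nM and 10 nM, 2345 higher at 40 nM and 2866 lower. At most of the largest differences 10 nM stood apart from both other 48 h groups, which lay closer to each other. HGD and TM4SF20 were exceptions, with 40 nM further from vehicle than 10 nM was. HGD, an enzyme of tyrosine breakdown, stood at 5.17, 5.05 and 5.27 at 10 nM, at 9.37, 9.41 and 9.32 at 40 nM and at 7.15, 6.78 and 6.91 in vehicle, so that it fell at 10 nM and rose at 40 nM. TM4SF20, a membrane protein, did the same, falling by 1.39 at 10 nM and rising by 2.54 ± 0.22 at 40 nM. CDH6, TSPAN7 and RNF128 were the others most raised at 40 nM relative to 10 nM, by 3.85 to 3.91, and EDIL3 (-5.28 ± 0.08), FPR2 (-3.66 ± 0.10), SPARC (-3.43 ± 0.08), IFI27 and RGS4 (-3.14 ± 0.19) were the most lowered.

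Where a gene has several probe sets, these differed more at 10 nM than at 40 nM. Over 4178 genes with at least 2 probe sets whose mean log2 value was over 6, the median range of the differences within a gene was 0.25 at 10 nM and 0.14 at 40 nM. The range exceeded 1 for 146 genes (3.49%) at 10 nM and for 31 (0.742%) at 40 nM. The 5' probe set of ACTB differed by -2.72 and its 3' probe set by -0.39, so that a single gene gave differences this far apart on the same arrays. The part of probe position in other genes was not tested.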

How the data were processed

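Labelled RNA of A549 cells had been read on 15 arrays in 5 groups of 3. The authors deposited 1 log2 value per probe set and array. The submitters' processing notes name RMA and Affymetrix Expression Console, with no version in the sources used here. Array means were 5.52 at 48 h and 5.13 to 5.14 at 24 h, so values were compared within a time. Of 54675 probe sets, 62 are controls, 41091 had 1 gene symbol, 1801 several and 11721 none here; gene IDs gave current symbols for 41037. Each of 19775 genes was read from its brightest single-symbol probe set, by the mean of all 15 arrays. HSPA1B and HSF2 were not measured by such a set.

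Group means were fitted with limma 3.58.1 in R 4.3.3 over all arrays (10 residual degrees of freedom), after a test on simulated data. Arrays give no read depth; their number limits the precision. The genes described are the 15 largest rises and falls whose groups did not overlap, up to 4 of the largest changes in each of 31 lists, HSP90 and heat shock genes fixed by name and the 5 largest differences each way between the doses; further list members are named for contrast, chosen after their values were seen. Members and lists were chosen with earlier results of these data known, some genes stand in several lists, and lists are described by counts and medians with no test. Promoters were matched by symbol for 15384 genes. Alternatives were other scalings, floors, filters, probe set rules, variance models, a replicate block and leaving out arrays.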

Additional observations from a re-analysis of the deposited data

Results flagged for a closer look

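Signals outside the gene comparison were seen in 2 places. The 3 control probe sets against 18S ribosomal RNA, which poly-A priming should not label, were higher on the 10 nM arrays than on the vehicle arrays at 48 h, by 1.08 for the 3' set, 0.53 for the middle set and 1.13 for the 5' set. Their mean over the 3 sets was 7.53, 7.69 and 7.59 at 10 nM and 6.63, 6.68 and 6.76 in vehicle, with no overlap, and 6.94, 6.90 and 7.01 at 40 nM. The 3 sets against 28S ribosomal RNA differed by -0.24 to 0.22.

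Among the 13522 probe sets with several gene symbols or none, which entered no gene comparison, 1652 passed the same test at 10 nM against vehicle (12.2%), 151 of them by at least 2-fold.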

How the results depend on the processing

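The number of genes that passed at 10 nM against vehicle stayed within 1.5 times of 5204 under the alternatives other than those given next. It was 2464 (1249 higher, 1215 lower) with the second brightest probe set, for which 10523 genes could be tested, 8036 (4460 higher, 3576 lower) with array weights, and 470 (258 higher, 212 lower) when at least 2-fold was required. Between 40 nM and 10 nM it was 2393 (1193 higher, 1200 lower) and 377 (228 higher, 149 lower) under the first and last of these. Leaving out 1 array gave 4278 to 4929 genes (2233 to 2897 higher, 1969 to 2127 lower), and between the doses 4231 to 4853 (1902 to 2117 higher, 2152 to 2883 lower). Subtracting array medians turned the split at 10 nM to 2457 higher and 2833 lower. Fewer genes were tested with the second brightest probe set, and calls often did not carry over to it. Of 3363 genes called in the main fit that could be tested with that set, 1318 kept their call. The cause of the count with array weights was not tested.

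Of the 136 genes described by the rules, only part have a second brightest probe set. With it 54 read the same, 19 lost their call and 12 turned sign. Those 12 were HBE1 (-0.24), HSPB8 (-0.0094), ATF3 (-0.18), GDF15 (-0.11), CCND1 (0.23), CCNE1 (-0.036), CDC25C (-0.40), ACACA (0.26), KRT19 (0.14), ACTA2 (-0.18), HSF1 (0.041) and NR3C1 (0.14). Without probe sets that may read several transcripts, HSPB8, ATF3 and GDF15 took those same values and GLUL 0.067. No other gene of these 136 whose change passed the test turned its sign under the settings tried. Over all called genes, the described ones among them, signs turned as well. Of 3363 called genes that had a second brightest probe set, 769 turned sign with it, 105 of them with a call. HSP90AA1, which did not pass (0.0033), became a fall of -0.16 with the mean of its probe sets (limma adjusted p = 0.0433).

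With the replicate number as a block, 4516 genes passed at 10 nM (2455 higher, 2061 lower) and 4398 between the doses. Deviations of same-numbered vehicle and 10 nM arrays correlated at 0.30, -0.27 and 0.23, so the numbers were not taken to pair the arrays.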
